A study of Mus musculus with 9 samples.

Results

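The transcripts described here are those of the lung after 1 X-ray exposure of the brain, measured by RNA sequencing and set against lungs of sham-irradiated mice. Genes were kept if their mean FPKM (the fragments of a gene scaled for its length and for the depth of the library) over the 6 libraries was at least 0.5. This left 14497 of the 22564 protein-coding genes in the deposited table. Of the genes left out, 5154 had no fragment in any of the 6 libraries and 2913 were detected below that level. Slc5a7 lay just inside the threshold with a mean FPKM of 0.500115, all of it from 1 library, and Gpr44 just outside with 0.499548.

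All mice were of a strain that carries LC3, a protein of the autophagosome membrane, fused to green fluorescent protein, so the sham mice carry the reporter as well. In the tested mice the whole brain received 10 Gy of X-rays once, at 2 Gy per min, and the sham mice were sham-irradiated, by a procedure that the labels do not describe. The groups are called exposed and sham below. There were 3 libraries of each kind, made from frozen lungs by ribosomal RNA depletion. The labels do not give the sex and age of the mice, or the time between exposure and tissue collection, and they do not say that each library came from a separate animal. All p-values thus rest on the spread among the 6 libraries, and that spread may be technical. The comparison asks what differs in an organ outside the irradiated field, often called a bystander or abscopal effect.

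Ionising radiation breaks DNA, and cells that are hit directly stabilise the transcription factor p53, which turns on genes such as Cdkn1a and Mdm2. A distant organ can instead be reached through the blood and the nerves, by cytokines, glucocorticoid hormone from the adrenal gland and catecholamines. Lung cells read such signals with immediate early genes, whose messages are made within minutes and are short-lived, with glucocorticoid receptor targets, with heat shock proteins that refold damaged proteins and with interferon-stimulated genes that resist viruses. The lung itself is built of flat alveolar type 1 cells, surfactant-making type 2 cells, airway epithelium, a dense bed of capillaries, fibroblasts and resident immune cells. Since whole tissue was sequenced, fewer cells of a type and less RNA per cell cannot be told apart in any value below.

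Differences lay in groups of genes more than in single ones. After a single exposure, genes of the type I interferon response and of cell division were higher, and immediate early genes, glucocorticoid-responsive genes, inducible chaperones and cytosolic ribosomal protein genes were lower. The genes of p53 and of autophagy lay near the level of all genes. No gene passed edgeR's quasi-likelihood test at a Benjamini-Hochberg adjusted p under 0.05, and the smallest adjusted p was 0.236, shared by Rps21, Ctgf and Epb4.1l3. By chance alone about 725 genes would lie at an unadjusted p under 0.05. The fit gave 1614 genes at that threshold, which is 11.1% of those fitted, with 863 higher (5.95%) and 751 lower (5.18%). Of these, 466 also differed at least 2-fold (3.21%), 265 of them higher (1.83%) and 201 lower (1.39%). DESeq2, run on the same counts, called 134 genes at an adjusted p under 0.05 (0.924%), 60 higher and 74 lower. In 2971 genes (20.5%) the 3 libraries of one group all lay above the 3 of the other, 1452 (10.0%) higher and 1519 (10.5%) lower after exposure.

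**Figure D1:**
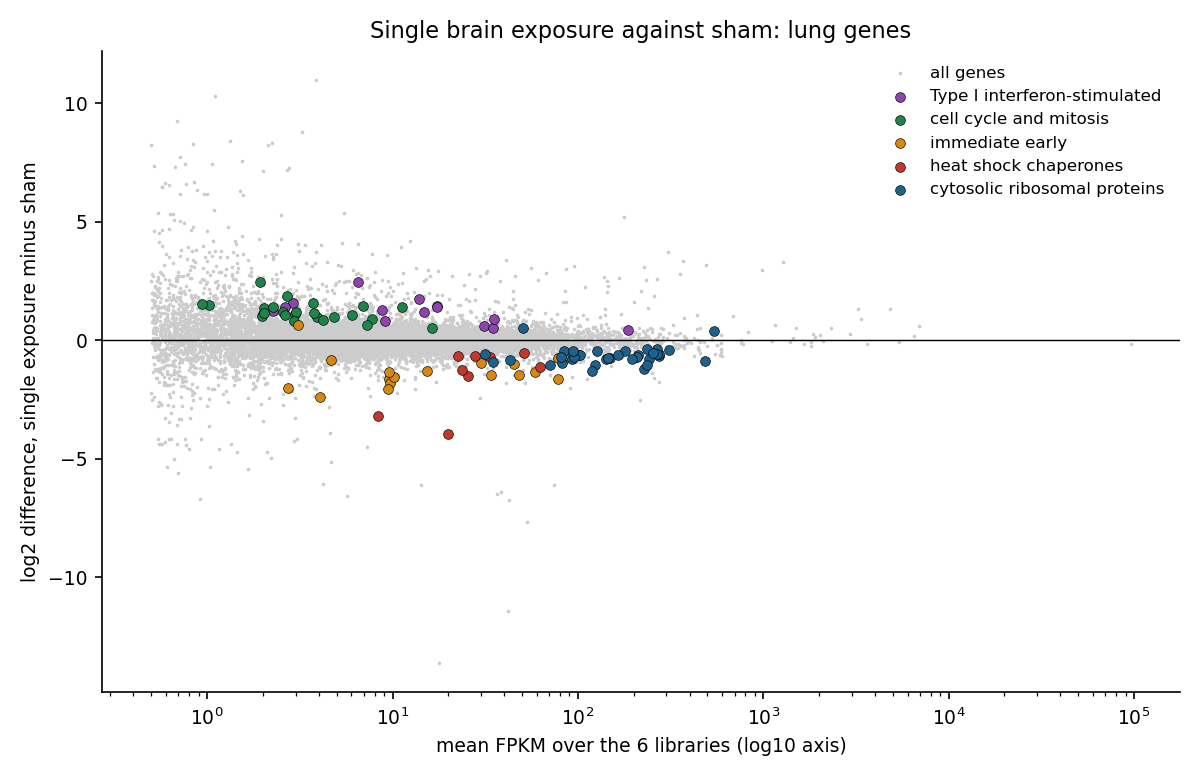
Fitted log2 difference, single exposure minus sham (vertical axis), against mean FPKM over the 6 libraries on a log10 axis (horizontal axis), with 1 point per gene for 14497 genes. Coloured points mark members of 5 gene lists at an unadjusted p under 0.05; interferon-stimulated and cell cycle genes lie above 0, and immediate early, heat shock and ribosomal protein genes lie below it apart from Rgs1, Rpl10 and Rpl15.

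The libraries themselves were not alike. They held 6909816, 5747305 and 6415681 fragments after exposure and 6149144, 5270612 and 4987829 in sham. Library 1 of the exposed group stood apart on the first principal component, which held 54.9% of the variance. Summed over 39 heart muscle genes it held 37833 CPM (fragment counts scaled to a common library size), against 333 and 1493 CPM in the other exposed libraries and 1249 to 2422 CPM in sham. Relative to the sham mean, its median alveolar type 1 gene lay at -2.04 and its median endothelial gene at -1.96 on the log2 scale, and its median white adipocyte gene lay at 3.06. The heart myosin gene Myh6 alone had 5132, 10.4 and 201 CPM in exposed lungs against 205, 241 and 181 CPM in sham lungs. Sham library 1 held 4166 CPM of skeletal muscle transcripts, against 45 to 560 CPM after exposure and 56 and 77 CPM in the other sham libraries. The fast muscle myosin gene Myh4 had 4995 fragments in sham library 1 and 0 in each of the other 5. In 71.5% of genes sham library 1 also lay between the other sham libraries, against 24.5 to 43.5% for each exposed library among its own. Its median squared deviation from their mean was 0.177 times the counting variance, below the 0.455 that separately drawn reads would give, so the sham values are not shown to be 3 independent measurements. By chance alone about 725 genes would lie at an unadjusted p under 0.05 in the full fit, which gave 1614. Without sham library 1 the count was 521 of 14505 genes, 228 of them higher and 293 lower. No excess over the chance number was thus left without that library. Without sham library 2 the count was 1049 (492 and 557) and without sham library 3 it was 805 (399 and 406). Without exposed library 1 it was 2738 (1468 and 1270), without exposed library 2 it was 2231 (1233 and 998). Without exposed library 3 it was 2332 (1206 and 1126). These fits held 14295 to 14537 genes, and list counts without a library are to be read against them. A core of 430 genes (2.97%) stayed under 0.05 in the same direction in all 7 fits, the full one and those without each library, 192 higher (1.32%) and 238 lower (1.64%). These are called core genes below, a description of stability and not a call.

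**Figure D2:**
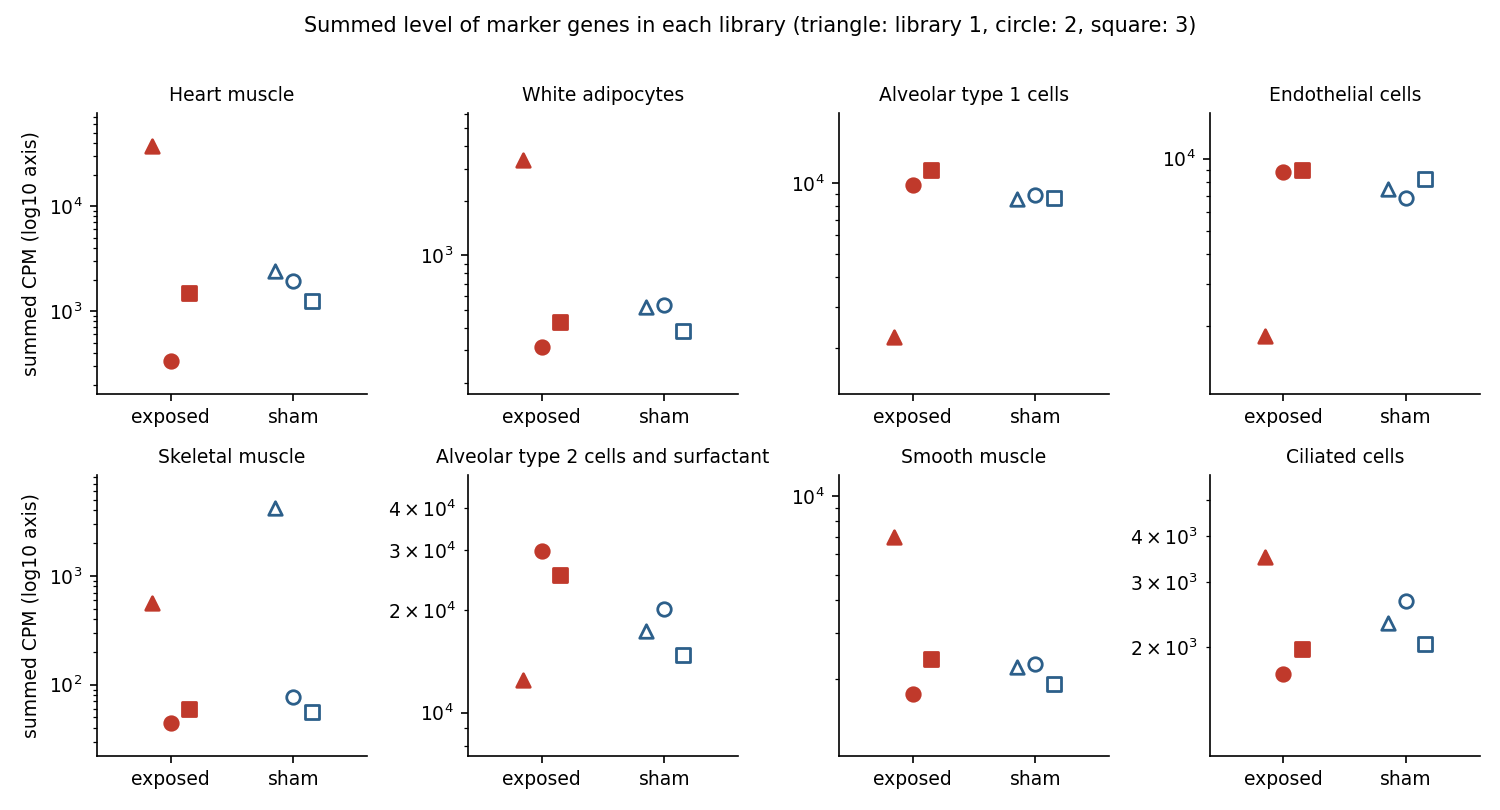
Summed CPM of marker genes of 8 cell types and tissues, 1 point per library, on a log10 axis, with exposed libraries in the left column and sham libraries in the right column of each panel. Exposed library 1 (filled triangle) stands apart for heart muscle, white adipocytes, alveolar type 1 cells and endothelium, and sham library 1 (open triangle) for skeletal muscle.

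Cytosolic ribosomes are built from large-subunit (Rpl) and small-subunit (Rps) proteins whose messages are among the most abundant in any cell. Of 48 large-subunit genes 41 were lower after exposure, with a median log2 difference of -0.33, and of 34 small-subunit genes 27 were lower, with a median of -0.22. Over all genes fitted the median was 0.04 and 45.8% were lower. At an unadjusted p under 0.05, 21 large-subunit and 13 small-subunit genes were lower and 2 large-subunit genes were higher, where all genes gave 5.18% lower and 5.95% higher. With limma on log2(FPKM + 1) the medians were -0.17 and -0.04, where all genes lay at 0.09. Without sham library 1 these counts were 16, 9 and 0, and without exposed library 1 they were 24, 13 and 2. The core genes included 15 of the large-subunit and 9 of the small-subunit genes, all lower. The shift was alike in the 3 exposed libraries, whose median large-subunit gene lay at -0.32, -0.53 and -0.34 and median small-subunit gene at -0.24, -0.30 and -0.32 from the sham mean.

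Rps21, a small-subunit protein gene (chromosome 2, 180257376 to 180258445, mm10), had the smallest p of all genes. It had 18.3, 16.96 and 18.5 CPM in the exposed libraries against 46.3, 44.3 and 41.4 CPM in the sham libraries, with no overlap between the groups. Its log2 difference was -1.29 ± 0.14 (SE). Rpl36a (chromosome X, 134585653 to 134588062) had 32.0, 31.0 and 29.2 CPM after exposure and 62.9, 60.6 and 65.4 CPM in sham, a log2 difference of -1.03 ± 0.12. Rpl30 had 83.3, 77.0 and 58.8 CPM in exposed lungs against 183, 192 and 134 CPM in sham lungs. Its sham libraries spread more widely than those of Rps21 but did not reach the exposed ones, and the log2 difference was -1.22 ± 0.20. Rps29 (-1.04 ± 0.20), Rplp2 (-1.03 ± 0.23), Rps20 (-0.96 ± 0.16) and Rplp1 (-0.86 ± 0.23), the last an acidic stalk protein gene among the most abundant transcripts, were lower in each exposed library than in each sham library. Against the direction of the family, Rpl10 had 450.2, 503 and 428 CPM in the exposed libraries against 344, 380.3 and 319 CPM in the sham libraries and Rpl15 had 69.3, 78.0 and 58.4 CPM after exposure and 46.4, 43.3 and 54.6 CPM in sham. Many ribosomal protein genes have near-identical processed copies elsewhere in the genome, and how shared fragments were divided is not given in the sources used here.

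Other parts of the translation machinery gave smaller medians. Of 76 mitochondrial ribosomal protein genes 46 were higher and 30 lower, with a median of 0.05. Without exposed library 1, 22 were higher and 54 lower, with a median of -0.18. At an unadjusted p under 0.05, 2 were then higher and 8 lower, where the 14295 genes of that fit gave 1468 and 1270. Both directions together, the list's share was below that of all genes. Of 40 initiation and elongation factor genes 18 were higher and 22 lower, with a median of -0.02 (0.07 with limma on log2(FPKM + 1)). Eef1b2, which reloads the elongation factor that brings aminoacyl-tRNA to the ribosome, was the exception among the core genes, with 40.9, 35.1 and 36.8 CPM in the exposed libraries against 68.1, 62.1 and 66.9 CPM in the sham libraries. Its log2 difference was -0.80 ± 0.13 and its groups were well apart. Genes of short locus, counted with the ribosomal ones among them, leaned lower at that threshold. Among 595 genes spanning under 3 kb, 30 were higher and 54 lower at an unadjusted p under 0.05, and among 3495 genes spanning 100 kb or more, 217 were higher and 136 lower. Ribosomal protein genes were not left out of these classes, so the classes are not separate from the ribosomal lists. The part of gene length in the ribosomal shift was not tested.

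Heat shock chaperones refold proteins that stress has unfolded, and the stress-inducible ones are switched on by the transcription factor HSF1 at heat shock elements in their promoters. Of 23 listed genes 17 were lower after exposure, with a median of -0.17. The median was -0.40 without exposed library 1, -0.34 without sham library 2, -0.04 without exposed library 2, -0.10 without exposed library 3 and -0.09 without sham library 3. Of the members 9 were lower and none higher at an unadjusted p under 0.05. Without sham library 1 there were 7 and without exposed library 1 there were 13, and 6 were core genes. The lower members included both inducible Hsp70 genes. Hspa1b, an inducible Hsp70 (chromosome 17, 34956435 to 34959819), had 7.97, 4.84 and 11.8 CPM in the exposed libraries against 116, 61.9 and 202 CPM in the sham libraries, a log2 difference of -3.94 ± 0.53. Its neighbour and near-identical copy Hspa1a (chromosome 17, 34969198 to 34972154) had 5.87, 2.60 and 8.93 CPM after exposure and 52.2, 42.2 and 65.8 CPM in sham, a log2 difference of -3.19 ± 0.43. The sham values of Hspa1b varied widely, yet the lowest of them stood well above every exposed library. Fragments of the pair may be divided wrongly between them, since their coding sequences are nearly the same.

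Hsp40 co-chaperones hand clients to Hsp70. Dnajb1, one of them, had 36.7, 37.5 and 37.0 CPM in exposed lungs against 85.5, 74.8 and 102 CPM in sham lungs, and its log2 difference was -1.24 ± 0.15. Dnaja1 had 90.2, 112 and 105 CPM in the exposed libraries against 223, 196 and 247 CPM in the sham libraries, with a log2 difference of -1.12 ± 0.15. In neither gene did the groups overlap, and the exposed libraries were tight. Dnajb4 (-0.70 ± 0.12) and Hsph1 (-1.49 ± 0.28), a nucleotide exchange factor for Hsp70, completed the core genes. Bag3 (-0.67 ± 0.23), Chordc1 (-0.66 ± 0.20) and the mitochondrial chaperonin Hspd1 (-0.54 ± 0.19) were lower without being core genes. The Hsp90 genes Hsp90aa1 (0.01 ± 0.24, and -0.49 with limma on log2(FPKM + 1)) and Hsp90ab1 (-0.02 ± 0.19), which are abundant without stress, lay close to sham. Small heat shock proteins that heart and smooth muscle make in bulk followed exposed library 1, with Cryab at 142, 65.1 and 111 CPM after exposure and 91.9, 95.3 and 81.3 CPM in sham.

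The heat shock element was searched as GAANNTTCNNGAA on both strands of RefSeq promoter windows of GRCm38.p6 that run from 250 bases before to 50 after the gene's start. It was in 4 of 18 chaperone windows (22.2%) and in 65 of 11101 windows of all genes fitted (0.586%). The windows of Hsph1 (chr5:149636287-149636586, minus strand) and Chordc1 (chr9:18292017-18292316, plus strand) are shown. They were chosen as the members with the smallest p among those whose window holds the element. Dnajb1, Hspa1a, Dnaja1, Hspa1b and Dnajb4 had smaller p but no match or no window, so most of the core chaperones are not shown to hold it. Capitals mark the element, which in Chordc1 is a run of overlapping matches.
Hsph1: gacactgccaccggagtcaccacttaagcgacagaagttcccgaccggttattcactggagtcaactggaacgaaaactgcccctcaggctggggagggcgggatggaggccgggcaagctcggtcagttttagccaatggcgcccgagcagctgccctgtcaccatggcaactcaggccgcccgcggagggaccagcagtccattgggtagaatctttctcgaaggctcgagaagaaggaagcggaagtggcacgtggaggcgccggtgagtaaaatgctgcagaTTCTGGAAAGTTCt
Chordc1: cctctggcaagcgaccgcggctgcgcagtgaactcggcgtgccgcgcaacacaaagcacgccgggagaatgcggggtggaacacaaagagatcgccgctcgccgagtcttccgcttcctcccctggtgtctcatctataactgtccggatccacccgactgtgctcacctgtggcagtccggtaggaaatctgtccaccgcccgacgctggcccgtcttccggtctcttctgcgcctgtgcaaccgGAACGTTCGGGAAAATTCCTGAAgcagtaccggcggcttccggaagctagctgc

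Immediate early genes encode transcription factors and feedback regulators that respond within minutes to growth factors, stretch, hormones or handling. Of 38 genes fitted 33 were lower after exposure, with a median of -0.73, and at an unadjusted p under 0.05 17 were lower and 1 higher. Without sham library 1 the counts were 12 and 0, and without exposed library 1 they were 16 and 2. All 11 core genes of the list were lower. The median member lay at -1.14, -1.06 and -0.35 in the 3 exposed libraries relative to sham, so exposed library 3 was nearest to sham. Among the sham libraries, library 2 lay highest, at 0.20, and library 3 lowest, at -0.20.

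Early responders differed among themselves. Fos, a component of the AP-1 factor, had 68.4, 101 and 206 CPM in the exposed libraries against 116, 141 and 89.1 CPM in the sham libraries, and the groups overlapped. Egr1 had 103, 67.3 and 136 CPM after exposure and 106, 151 and 64.6 CPM in sham and overlapped too. Both spread widely within each group. By contrast Crem, whose short isoform ICER represses cAMP-driven transcription, had 10.5, 13.5 and 11.8 CPM in exposed lungs against 28.8, 30.9 and 28.1 CPM in sham lungs. Its groups were tight and apart, with a log2 difference of -1.29 ± 0.17. Maff, a small Maf factor, had 8.42, 10.6 and 15.1 CPM in the exposed libraries against 32.2, 32.6 and 35.1 CPM in the sham libraries, with a log2 difference of -1.55 ± 0.24. The orphan nuclear receptors Nr4a2 (-1.64 ± 0.38) and Nr4a3 (-1.81 ± 0.43), the AP-1 member Fosl2 (-0.94 ± 0.18), Csrnp1 (-1.35 ± 0.32), Myc (-0.82 ± 0.23), the cAMP-responsive kinase gene Sik1 (-0.98 ± 0.25) and Klf4 (-1.48 ± 0.40), a factor of quiescent endothelium, were core genes as well. Apold1, an endothelial early response gene, had 6.32, 2.94 and 6.38 CPM after exposure and 27.9, 42.9 and 10.8 CPM in sham, and its sham libraries differed widely among themselves without reaching the exposed ones. Endothelial markers were low in exposed library 1 alone, while Klf4 was also low in exposed library 2, at 46.2 CPM.

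Ctgf (Ccn2), a matricellular growth factor driven by stretch, YAP and TGF-beta, had tight groups far apart. It had 100.5, 92.1 and 132 CPM in the exposed libraries against 328, 328 and 336 CPM in the sham libraries, with a log2 difference of -1.61 ± 0.17 (chromosome 10, 24549440 to 24598683). The sham libraries were nearly equal and none of the exposed ones came near them. Its relative Cyr61 (Ccn1) had 45.6, 72.8 and 131 CPM after exposure and 180.5, 292 and 68.5 CPM in sham and overlapped, with sham library 3 low. Thbs1, thrombospondin 1, which platelets, endothelium and fibroblasts make, had 237, 239.8 and 308 CPM in exposed lungs against 832, 1164 and 541 CPM in sham lungs. Its log2 difference was -1.69 ± 0.31 and its groups did not overlap. The aggrecan-cleaving proteases Adamts1 (-1.48 ± 0.40) and Adamts9 (-1.51 ± 0.30), both inducible in endothelium, were lower among the core genes too.

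Glucocorticoid hormone binds the receptor Nr3c1, which then raises a well-known set of targets in lung. Nr3c1 itself overlapped between groups, with 212, 388 and 331 CPM in the exposed libraries against 283, 281 and 288 CPM in the sham libraries. Of 25 targets fitted 21 were lower after exposure, with a median of -0.72. At an unadjusted p under 0.05 9 were lower and none higher, against 6 without sham library 1, 11 lower and 1 higher without exposed library 1 and 14 lower without exposed library 3. Tsc22d3 (GILZ), the most used reporter of the hormone, had 69.0, 82.2 and 240.1 CPM after exposure and 397, 290.1 and 518 CPM in sham. Its log2 difference was -1.62 ± 0.51, and exposed library 3 lay much nearer to sham than the others. Errfi1, a brake on the EGF receptor, had 73.1, 134 and 169.9 CPM in exposed lungs against 349.6, 413 and 289.5 CPM in sham lungs, with a log2 difference of -1.48 ± 0.32. The factor Cebpb (-1.57 ± 0.28), the mTOR inhibitor Ddit4 (-1.52 ± 0.37), the NF-kB inhibitor Nfkbia (-0.82 ± 0.16) and the lipase inhibitor Angptl4 (-0.88 ± 0.23) were, with Errfi1, core genes of the list, and Tsc22d3 was not. Fkbp5 did not follow, with 27.8, 19.2 and 56.0 CPM in the exposed libraries against 45.5, 15.001 and 70.5 CPM in the sham libraries. In sham, library 2 was the low one for Fkbp5, Zbtb16 and Ddit4 and library 3 the high one.

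Clock genes can show a difference in the hour of collection, which the labels do not give. Of 20 clock genes 13 were lower, with a median of -0.17, and 2 were lower at an unadjusted p under 0.05, a share near the 11.1% of all genes. Without exposed library 3 the counts were 6 lower and 2 higher, with a median of -0.30, and without sham library 2 there were 4 lower. The median was -0.10 without exposed library 1 and -0.11 without exposed library 2. Cry2, a repressor of the clock, had 47.2, 50.5 and 85.8 CPM after exposure and 108, 105 and 123 CPM in sham, with a log2 difference of -0.87 ± 0.25. Per1, which glucocorticoid and cAMP also induce, had 102, 33.2 and 211 CPM in exposed lungs against 267, 304 and 249 CPM in sham lungs. Its groups did not overlap, but its exposed libraries spread widely, and the log2 difference was -1.25 ± 0.58. The part of the hour of collection in the lower immediate early and hormone-responsive genes was not tested.

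Type I interferon, made on sensing foreign or misplaced nucleic acid, acts through a receptor and transcription factors on a large set of antiviral genes. Of 33 such genes fitted 32 were higher after exposure, with a median of 0.61, and 14 were higher and none lower at an unadjusted p under 0.05. Without sham library 1 there were 7, without exposed library 2 or sham library 3 there were 9 and without exposed library 1 there were 19. The core genes held 7 of them. The median member lay at 0.37, 1.10 and 0.22 in the exposed libraries, so library 2 led and the list median was 0.33 without it, while the sham libraries lay between -0.02 and 0.02. The summed level of the list was 1649, 2864 and 1660 CPM after exposure and 1396, 1405 and 1434 CPM in sham.

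The sensors and amplifiers come first. Irf7, which amplifies interferon production, had 42.9, 60.7 and 30.3 CPM in the exposed libraries against 15.7, 15.2 and 18.1 CPM in the sham libraries. Every exposed library was above every sham library, with a log2 difference of 1.45 ± 0.27. Zbp1, a sensor of Z-form nucleic acid, had 29.3, 25.8 and 15.9 CPM after exposure and 9.93, 11.4 and 7.85 CPM in sham and a log2 difference of 1.28 ± 0.28. The RNA sensor Ddx58 (RIG-I) was at 0.52 ± 0.21, and Ifih1 (MDA5) was at 0.47 ± 0.28 with overlapping groups. The signalling factor Stat2 stood at 0.19 ± 0.17 and Irf9, its partner on DNA, at 0.24 ± 0.21.

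Effectors carry out the defence. Oas3, which makes the 2-5 oligoadenylate that activates RNase L (chromosome 5, 120753097 to 120777661), had 14.7, 19.4 and 22.2 CPM in exposed lungs against 6.25, 7.69 and 7.07 CPM in sham lungs, with a log2 difference of 1.42 ± 0.23. Here exposed library 3 was the highest. Oasl2 had 78.1, 104 and 68.6 CPM in the exposed libraries against 41.96, 44.6 and 46.1 CPM in the sham libraries, with a log2 difference of 0.92 ± 0.18. Rtp4, a chaperone of receptors that interferon induces, had 31.3, 50.7 and 25.7 CPM after exposure and 10.9, 10.5 and 10.6 CPM in sham. The sham libraries agreed closely, and the log2 difference was 1.75 ± 0.28. Ifi44 had 20.6, 66.6 and 14.2 CPM in exposed lungs against 5.93, 8.63 and 3.73 CPM in sham lungs, with exposed library 2 far above the others of its group and a log2 difference of 2.46 ± 0.65. Ifit1, which binds uncapped or unmethylated RNA ends, had 60.3, 124 and 41.3 CPM in the exposed libraries against 28.7, 25.9 and 31.6 CPM in the sham libraries (1.39 ± 0.40). Ifitm3, which blocks virus entry and is the most abundant member by FPKM, had 120.5, 133 and 126 CPM after exposure and 91.1, 99.8 and 87.5 CPM in sham, a small difference with groups apart (0.45 ± 0.12). Isg15, the ubiquitin-like modifier, was at only 2.71, 3.98 and 2.07 CPM after exposure and 0.961, 1.5001 and 0.393 CPM in sham. Bst2 (tetherin), the 1 member below 0, and Slfn5 lay at the sham level.

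Presentation genes and other genes that interferon can induce follow. Siglec1 (sialoadhesin), a lectin of tissue macrophages (chromosome 2, 131069219 to 131086765), had 40.01, 45.2 and 40.2 CPM in exposed lungs against 19.9, 21.0 and 21.4 CPM in sham lungs. The groups were tight, with a log2 difference of 1.01 ± 0.14. Among interferon-gamma-induced GTPases and class I presentation genes, 18 of 25 were higher, with a median of 0.21 that was 0.07 without exposed library 2 and 0.35 without exposed library 1, and 5 were higher and none lower at an unadjusted p under 0.05, against 2 without sham library 1, 2 higher and 2 lower without exposed library 2 and 1 each way without sham library 2. Psme1, an activator of the immunoproteasome, had 103, 101 and 85.5 CPM in the exposed libraries against 66.9, 68.1 and 67.1 CPM in the sham libraries and was the only core gene there (0.52 ± 0.13). The GTPases Irgm2 (0.68 ± 0.20) and Iigp1 (0.85 ± 0.29) were higher, and the immunoproteasome subunit Psmb8 was at -0.09 ± 0.25 with overlapping groups. Of 11 class II genes 7 were higher. H2-Ab1, a class II beta chain, had 445, 406 and 374 CPM after exposure and 283, 276 and 297 CPM in sham, while Ciita, the master factor of class II, was at -0.34 ± 0.16, on the other side of 0.

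The interferon-stimulated response element was searched as GAAANNGAAA on both strands of the same windows. It was in 15 of 25 interferon-stimulated gene windows (60%), against 430 of 11101 windows of all genes fitted (3.87%). The windows of Oas3 (chr5:120777610-120777909, minus strand) and Ifit1 (chr19:34640639-34640938, plus strand) are shown. They are among the members with the smallest p of those whose window holds the element. Rtp4, Irf7, Oasl2, Zbp1 and Ifi44 had smaller p than Ifit1 but no match or no window. Capitals mark the element, which Oas3 holds as GAAAACGAAA and Ifit1 holds in 2 places on the other strand. A match describes these letters and does not show that a factor was bound.
Oas3: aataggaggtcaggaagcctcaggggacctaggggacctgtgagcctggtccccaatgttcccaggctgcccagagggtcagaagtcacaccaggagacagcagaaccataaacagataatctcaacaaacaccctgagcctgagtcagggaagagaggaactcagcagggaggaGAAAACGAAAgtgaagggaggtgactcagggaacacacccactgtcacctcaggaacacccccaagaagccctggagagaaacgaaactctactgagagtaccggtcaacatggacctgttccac
Ifit1: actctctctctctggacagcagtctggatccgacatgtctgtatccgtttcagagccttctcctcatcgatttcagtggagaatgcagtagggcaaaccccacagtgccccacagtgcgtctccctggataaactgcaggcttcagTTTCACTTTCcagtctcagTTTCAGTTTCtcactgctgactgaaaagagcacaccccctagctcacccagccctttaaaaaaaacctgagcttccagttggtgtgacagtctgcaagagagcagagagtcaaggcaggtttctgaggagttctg

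Genes of dividing cells were higher without exception in the list. All 46 cell cycle and mitosis genes fitted were higher after exposure, with a median of 0.95, against 54.2% higher among all genes. At an unadjusted p under 0.05 25 were higher, against 13 without sham library 1, 12 without sham library 2 and 21 higher and 1 lower without exposed library 1. The core genes held 9 of them. The median member lay at 1.15, 0.91 and 0.32 in the exposed libraries, so library 3 was nearest to sham. The summed level was 1001, 1010 and 591 CPM after exposure and 498, 435 and 569 CPM in sham.

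Members act from DNA synthesis to cell separation. Mcm3, part of the replicative helicase, had 30.8, 16.3 and 20.2 CPM in the exposed libraries against 11.4, 11.8 and 11.2 CPM in the sham libraries, with a log2 difference of 0.97 ± 0.27. Nuf2, a kinetochore protein that grips microtubules, had 6.32, 8.48 and 7.65 CPM after exposure and 1.12, 1.31 and 1.57 CPM in sham. Its groups were far apart for such a low transcript, with a log2 difference of 2.47 ± 0.34. Cdc20, which activates the anaphase-promoting complex, had 11.6, 8.82 and 7.49 CPM in exposed lungs against 2.72, 2.81 and 3.73 CPM in sham lungs (1.59 ± 0.31). Prc1, which bundles the microtubules of the central spindle (chromosome 7, 80294449 to 80316259), had 30.5, 32.4 and 19.1 CPM in the exposed libraries against 8.97, 9.56 and 11.8 CPM in the sham libraries (1.44 ± 0.26). In both, exposed library 3 was the lowest of its group and still above all sham libraries. Tpx2 (1.86 ± 0.41), Cenpf (1.19 ± 0.27), Cenpe (1.47 ± 0.41), Ccnb1 (1.38 ± 0.38) and E2f8 (1.43 ± 0.37) were the other core genes. The common proliferation markers overlapped, since exposed library 3 was at the sham level, with Mki67 at 156, 152 and 65.5 CPM after exposure and 65.5, 55.3 and 80.1 CPM in sham and Top2a at 82.1, 106 and 34.0 CPM in exposed lungs against 27.2, 17.8 and 39.5 CPM in sham lungs.

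Many genes of G2 and mitosis share a pair of promoter elements. The cell cycle homology region was searched as TTTGAA and the CCAAT box as CCAAT, both on either strand. Both were in 18 of 39 cell cycle windows (46.2%), against 794 of 11101 windows of all genes fitted (7.15%). The windows of Prc1 (chr7:80294201-80294500, plus strand) and Cdc20 (chr4:118437294-118437593, minus strand) show both elements in capitals. CCAAT lies ahead of TTTGAA in each, and a second CCAAT follows it in Cdc20. Nuf2 had a smaller p than either gene but did not hold both elements or had no window.
Prc1: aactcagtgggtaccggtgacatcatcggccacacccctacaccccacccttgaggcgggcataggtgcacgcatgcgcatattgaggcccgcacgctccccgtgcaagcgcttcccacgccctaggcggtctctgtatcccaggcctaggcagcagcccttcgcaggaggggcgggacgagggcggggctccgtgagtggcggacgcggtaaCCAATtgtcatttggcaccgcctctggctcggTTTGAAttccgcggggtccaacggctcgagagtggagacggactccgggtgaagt
Cdc20: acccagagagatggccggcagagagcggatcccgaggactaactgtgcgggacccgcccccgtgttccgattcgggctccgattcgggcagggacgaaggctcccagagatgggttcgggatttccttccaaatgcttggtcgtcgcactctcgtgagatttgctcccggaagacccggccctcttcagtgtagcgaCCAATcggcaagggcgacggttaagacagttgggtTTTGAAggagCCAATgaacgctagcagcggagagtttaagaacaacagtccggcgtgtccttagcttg

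Replication-dependent histone genes, whose messages normally end in a stem-loop and accumulate in S phase, were higher in 25 of 37 with a median of 0.40. The median was 0.06 without sham library 2 and 0.10 without exposed library 1. At an unadjusted p under 0.05 8 were higher and none lower, against 4 without sham library 1 and 5 without sham library 2. Hist1h2bg had 36.1, 46.4 and 25.5 CPM in the exposed libraries against 15.1, 13.7 and 17.9 CPM in the sham libraries and a log2 difference of 1.21 ± 0.25. Hist2h4 had 91.0, 87.2 and 121 CPM after exposure and 54.0, 47.1 and 63.6 CPM in sham (0.86 ± 0.19). Histone genes are near-identical copies, so which copy the fragments came from is uncertain. Because ribosomal RNA was depleted and no poly(A) selection is stated, histone messages without a tail can be in these libraries.

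**Figure D3:**
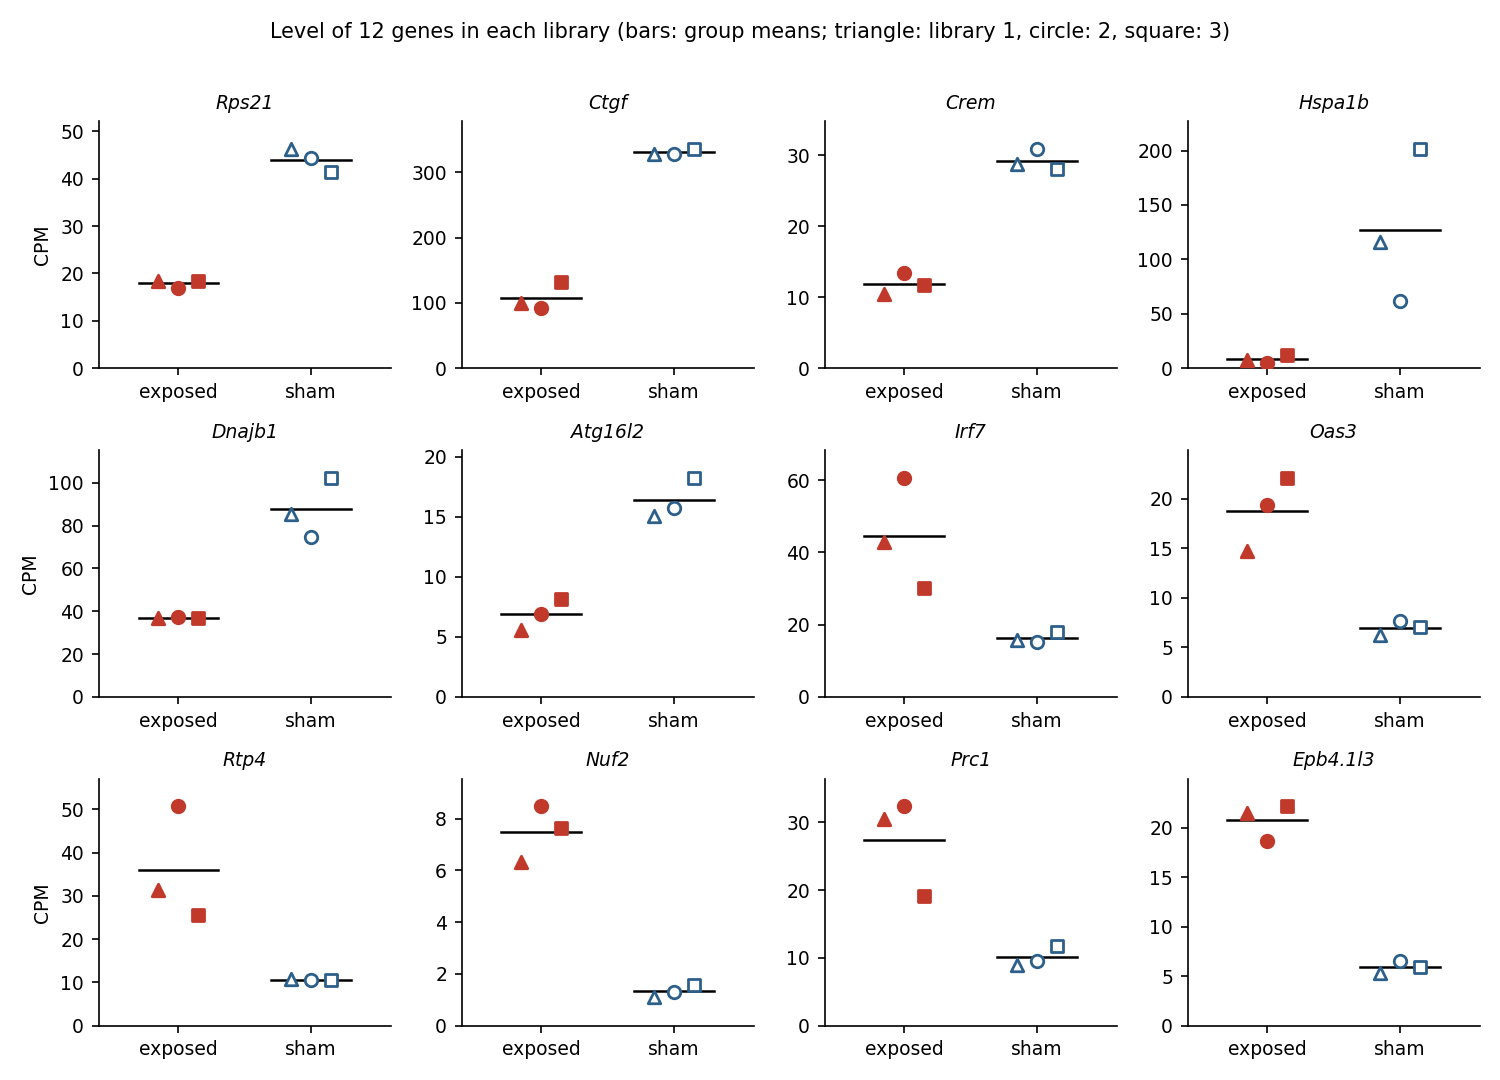
CPM of 12 named genes in each library, 1 panel per gene, each with its own linear axis from 0. Exposed libraries are on the left and sham libraries on the right of each panel, and bars mark group means. All 12 genes were taken from the 2971 genes (20.5% of those fitted) whose groups do not overlap.

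The genes that a direct hit would turn on were near sham. Of 31 p53 targets 11 were higher and 20 lower, with a median of -0.09. It was -0.24 without exposed library 2 and -0.15 without exposed library 3. At an unadjusted p under 0.05 1 was higher and 3 lower, a share of 12.9% near the 11.1% of all genes. Cdkn1a (p21), the inhibitor of cyclin-dependent kinases, had 86.2, 50.9 and 69.0 CPM in exposed lungs against 89.8, 91.5 and 84.6 CPM in sham lungs, a log2 difference of -0.37 ± 0.20. Its exposed library 1 reached into the sham range. Mdm2, the ubiquitin ligase that p53 induces against itself, had 73.5, 79.1 and 67.8 CPM in the exposed libraries against 85.4, 83.4 and 86.4 CPM in the sham libraries, below sham in each exposed library by a small amount (-0.21 ± 0.12). Tnfrsf10b, a TRAIL death receptor, had 8.57, 6.402 and 5.74 CPM after exposure and 17.9, 23.8 and 11.97 CPM in sham, with a log2 difference of -1.37 ± 0.32. Gtse1, the higher one, is expressed in G2 and mitosis like the division genes above, and stood at 2.33 ± 0.65. The 39 DNA repair genes had a median of 0.12, with 28 higher, and a median of 0.04 without exposed library 1. At an unadjusted p under 0.05 2 were higher, Brca2 (0.62 ± 0.23) and the replication ligase Lig1 (0.62 ± 0.25). This share of 5.13% was below the 11.1% of all genes.

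Autophagy, the process the reporter strain was made to follow, delivers cell contents to lysosomes in vesicles coated with lipidated LC3. Of 42 autophagy genes 20 were higher and 22 lower, with a median of -0.01 (0.10 with limma on log2(FPKM + 1)). At an unadjusted p under 0.05 3 were lower and none higher, a share of 7.14% against 11.1% of all genes. Map1lc3b, which encodes LC3B, had 197, 183 and 221 CPM in exposed lungs against 204, 195 and 227 CPM in sham lungs, and the groups overlapped (-0.06 ± 0.14). The reporter transgene was not analysed here, and whether its LC3 part adds fragments to this gene is not known. Sqstm1 (p62), a cargo receptor, had 204, 202 and 234 CPM in the exposed libraries against 249, 258 and 226 CPM in the sham libraries and overlapped as well. The exception was Atg16l2 (chromosome 7, 101289391 to 101302251), a relative of the scaffold that directs LC3 lipidation. It had 5.57, 6.92 and 8.13 CPM after exposure and 15.1, 15.8 and 18.3 CPM in sham, with a log2 difference of -1.25 ± 0.23 and the groups apart. The scaffold itself, Atg16l1, had 46.3, 54.2 and 45.3 CPM in exposed lungs against 61.7, 61.9 and 65.2 CPM in sham lungs (-0.37 ± 0.13), and the LC3-processing protease Atg4d was at -0.51 ± 0.18. Transcript levels do not show autophagic flux, which depends on lipidation and lysosomal turnover.

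Lysosomal genes leaned higher. Of 36, 28 were higher, with a median of 0.19 that was 0.12 without exposed library 2, and at an unadjusted p under 0.05 7 were higher and 1 lower. The list's share was 22.2%, against 11.1% of all genes. The count higher was 1 without sham library 1 or 3, 4 without sham library 2 or exposed library 3 and 12 without exposed library 1. Over all genes the counts higher in these fits were 228 and 399, 492 and 1206, and 1468, so the list's count moved with that of all genes. Ctsb, the cysteine protease cathepsin B, had 859, 566 and 570.0 CPM in the exposed libraries against 380.0, 381 and 379.8 CPM in the sham libraries, with a log2 difference of 0.81 ± 0.21, and was the core gene. Exposed library 1 was the highest, but the other exposed libraries also stood above sham, whose values were nearly equal. The aspartic protease Ctsd (0.36 ± 0.15), the hexosaminidase subunit Hexa (0.34 ± 0.13), the galactosidase Glb1 (0.66 ± 0.24), the macrophage marker Cd68 (0.43 ± 0.17) and the proton pump subunit Atp6v1b2 (0.48 ± 0.16) were higher. Atp6v1h, another subunit of the pump, was lower (-0.38 ± 0.14).

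The secretory pathway and the stress responses tied to it gave mixed values. Calr, calreticulin, a chaperone of the endoplasmic reticulum, had 484, 418 and 391 CPM after exposure and 289, 294 and 292 CPM in sham (0.56 ± 0.14), and its cofactor family member Sdf2l1 had 9.93, 12.6 and 12.6 CPM in exposed lungs against 5.45, 6.38 and 6.28 CPM in sham lungs (0.96 ± 0.23). Both were core genes with groups apart. The stress factors Atf4 (-0.58 ± 0.16) and Ddit3 (CHOP, -1.04 ± 0.22) were lower among the core genes, which is the other direction from these chaperones. Of 24 genes of the unfolded protein response 15 were higher and 9 lower, with a median of 0.10, and -0.02 without exposed library 2. Hif1a, the oxygen-regulated factor, had 142, 151 and 118 CPM in the exposed libraries against 92.7, 104 and 88.1 CPM in the sham libraries (0.53 ± 0.14), while its target Higd1a, a mitochondrial protein, had 10.2, 8.65 and 7.81 CPM after exposure and 19.9, 16.1 and 19.2 CPM in sham (-1.05 ± 0.20). Over 25 hypoxia genes the median was 0.03, and it was -0.13 without exposed library 1 and 0.33 without exposed library 2.

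Lipid synthesis showed single genes rather than a group. Scd1, the desaturase that makes monounsaturated fatty acids and one of the most abundant transcripts here, had 4199.8, 3186 and 2956 CPM in exposed lungs against 1668, 2379.5 and 948 CPM in sham lungs, with a log2 difference of 1.05 ± 0.38. The sham libraries differed widely among themselves, and the highest of them lay below every exposed library. Dhcr7, the last enzyme of cholesterol synthesis, had 22.3, 19.4 and 18.2 CPM in the exposed libraries against 10.2, 12.6 and 7.85 CPM in the sham libraries (0.96 ± 0.23). Pmvk, phosphomevalonate kinase of the same pathway, went the other way, with 10.1, 9.86 and 12.3 CPM after exposure and 22.7, 22.9 and 23.4 CPM in sham (-1.10 ± 0.17). The list of 29 had a median of 0.20 with 20 higher. The median was 0.07 without sham library 3 and 0.10 without exposed library 2. At an unadjusted p under 0.05 4 were higher and 1 lower, a share of 17.2% against 11.1% of all genes.

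Matrix genes differed in both directions. Col3a1, the collagen of stretchable tissue, had 1253, 795 and 793 CPM in exposed lungs against 502, 569 and 449.9 CPM in sham lungs, with a log2 difference of 0.90 ± 0.24. Col5a2, which nucleates fibrils, had 134, 139 and 116 CPM in the exposed libraries against 94.3, 92.1 and 91.7 CPM in the sham libraries (0.48 ± 0.12), and Adamts2, which trims the N-terminal ends of procollagen, had 101, 72.3 and 89.9 CPM after exposure and 52.4, 53.4 and 50.4 CPM in sham (0.75 ± 0.16). In all 3 genes the groups did not overlap. Mmp14, a membrane-anchored collagenase, was higher too (0.65 ± 0.16), and P4ha2, a subunit of the proline hydroxylase that stabilises collagen, was lower (-0.75 ± 0.22). The list as a whole was split, with 20 of 37 genes higher and a median of 0.10, which was -0.05 without exposed library 3 and 0.22 without sham library 2. Mgp, matrix Gla protein, an inhibitor of calcification and among the most abundant transcripts, had 184, 219 and 291 CPM in exposed lungs against 352, 347 and 365 CPM in sham lungs (-0.62 ± 0.19).

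Inflammatory mediators did not form a group. Of 40 cytokine and chemokine genes fitted 24 were higher and 16 lower, with a median of 0.18 that was -0.05 without exposed library 2. At an unadjusted p under 0.05 2 were higher and 3 lower, a share of 12.5% near the 11.1% of all genes. Il6 and the stress cytokine Gdf15 were below the expression threshold. Tgfb1, the profibrotic TGF-beta 1, had 35.3, 56.2 and 85.5 CPM in exposed lungs against 55.9, 48.6 and 65.2 CPM in sham lungs and overlapped (0.06 ± 0.32). Il1b ranged from 3.01 to 65.2 CPM among exposed libraries, against 19.9 to 21.0 CPM in sham. Tnf (1.30 ± 0.59) and Ccl2 (0.02 ± 0.60) overlapped at low levels. Cxcl10, a chemokine that interferon induces, had 11.4, 14.2 and 8.61 CPM in the exposed libraries against 4.64, 2.06 and 7.65 CPM in the sham libraries (1.25 ± 0.48). Ccl21a, which lymphatic endothelium and lymphoid stroma make to guide T cells and dendritic cells, had 11.6, 19.03 and 24.4 CPM after exposure and 39.6, 37.5 and 47.7 CPM in sham (-1.18 ± 0.28). The lymphatic marker Mmrn1 was lower as well (-0.68 ± 0.21), and Ccl21a has near-identical copies, so its fragments may be shared. Ccl9, a macrophage chemokine of the mouse, was higher (0.99 ± 0.28).

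Markers of cell types moved mainly with library 1 of the exposed group. Alveolar type 1 genes gave 6 higher and 8 lower of 14, with a median of -0.17, and Ager, their receptor marker, had 97.8, 834 and 1349 CPM in exposed lungs against 855, 884 and 876 CPM in sham lungs. Type 2 genes gave a median of 0.39, which was 0.65 without exposed library 1 and -0.04 without exposed library 2, with Sftpc, surfactant protein C, at 1434, 6864 and 6994 CPM in the exposed libraries against 4459.8, 5017 and 3968 CPM in the sham libraries. In both, exposed libraries 2 and 3 lay near or above sham and exposed library 1 far below it. Scgb1a1, the club cell secretoglobin and the transcript with most fragments in each library, overlapped at 34715, 22288 and 37204 CPM after exposure and 34660.0, 39041 and 32056 CPM in sham. Without that library 6 type 1 genes and 14 type 2 genes were higher at an unadjusted p under 0.05, and 1 type 1 gene was lower. Endothelial genes behaved likewise, with Pecam1 at 185, 632 and 622 CPM after exposure and 539, 539.7 and 553 CPM in sham. Smooth muscle, white adipocyte, cartilage, basal and neuroendocrine cell, and neuron and Schwann cell genes had medians of 0.97, 1.71, 1.91, 1.89 and 1.81. Without exposed library 1 they were -0.17, -0.72, -0.06, -0.23 and -0.06, so their medians rested on that library.

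Among blood cells, most platelet and neutrophil genes were lower and most B cell genes higher. Of 25 platelet and megakaryocyte genes 22 were lower, with a median of -0.67, and 9 were lower at an unadjusted p under 0.05, against 3 without sham library 1 or 3 and 5 without exposed library 2. The exposed libraries lay at -0.88, -0.53 and -0.28. Ppbp, a chemokine of platelet granules, had 24.4, 32.9 and 39.4 CPM in exposed lungs against 48.5, 43.1 and 52.4 CPM in sham lungs (-0.58 ± 0.20), and Pf4, platelet factor 4, was at -0.64 ± 0.25. Of 22 neutrophil genes 14 were lower, with a median of -0.54, and the exposed libraries ran from -1.67 to 0.19, with library 3 above the sham mean. The median was -0.14 without sham library 3, -0.18 without exposed library 1 and -1.79 without exposed library 3. The list's 2 core genes, Ngp and Camp, are transcribed in immature neutrophils of the marrow. Ngp had 0, 0.346 and 2.07 CPM in the exposed libraries against 18.9, 7.31 and 29.4 CPM in the sham libraries. Camp, low in both groups, had 0, 0.173 and 0 CPM after exposure and 2.40, 0.938 and 3.73 CPM in sham. Other granule genes of the list are not described, and 8 members were higher. The summed level of the list was 1830, 505 and 1001 CPM after exposure and 812, 558 and 1110 CPM in sham. Mature neutrophil genes such as S100a8 spread from 1.35 to 97.4 CPM after exposure and from 51.0 to 139 CPM in sham, and the groups overlapped.

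B cell genes were higher in 15 of 17, with a median of 0.61, and 4 were higher at an unadjusted p under 0.05, against 2 without sham library 1 or 3. Fcer2a (CD23), a low-affinity IgE receptor, had 19.1, 8.998 and 11.001 CPM in exposed lungs against 4.80, 6.56 and 4.12 CPM in sham lungs (1.33 ± 0.37). Exposed library 1 was highest for this list, at a median of 1.38, against 0.08 and -0.19 in its mates, and without it the median of the list was -0.09. The plasma cell gene Igj, the joining chain of secreted antibodies, had 271, 293 and 23.6 CPM in the exposed libraries against 585, 687 and 497 CPM in the sham libraries, lower in each exposed library and lowest in library 3. NK and cytotoxic genes had a median of 0.71, carried by exposed library 2 at 1.33, against -0.27 and 0.00 in libraries 1 and 3. T cell genes had a median of 0.20, also carried by exposed library 2 at 0.61, and it was -0.10 without that library and 0.07 without sham library 2. Cd3e, a signalling chain of the T cell receptor, had 12.3, 14.9 and 17.9 CPM after exposure and 8.49, 8.25 and 10.0 CPM in sham (0.75 ± 0.22). Alveolar macrophage genes were higher in 18 of 20, with a median of 0.62 that was 0.16 without exposed library 2. The exposed libraries lay at -0.13, 0.89 and 0.28, and 4 genes were higher at an unadjusted p under 0.05, including the mannose receptor Mrc1 (0.64 ± 0.20) and the lipid receptor Trem2 (1.08 ± 0.34). The count was 0 without sham library 1, 2 without sham library 2 or 3 and 10 without exposed library 1. The list shares Fabp4, Lpl and Cidec with the white adipocyte list, and all 3 were highest in exposed library 1. Lpl, at 608, 157 and 145 CPM after exposure and 116, 123 and 110 CPM in sham, is among the 4 genes higher in the full fit. These genes are thus not specific to macrophages. C1qb, a complement subunit that macrophages secrete, had 109, 63.3 and 69.4 CPM in exposed lungs against 45.2, 36.6 and 54.8 CPM in sham lungs (0.83 ± 0.26).

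**Figure D4:**
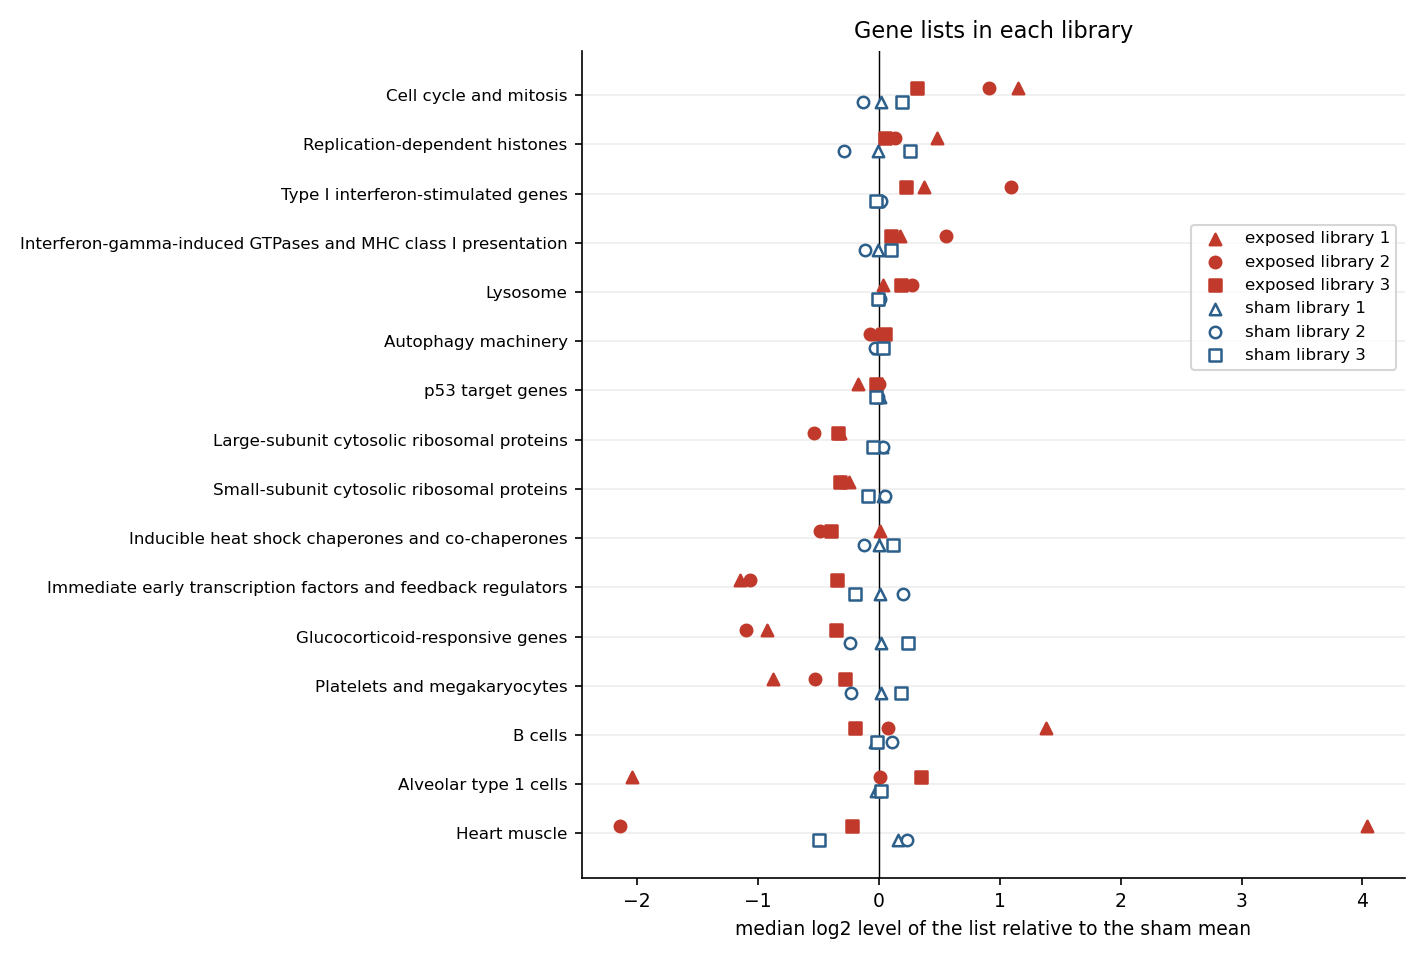
Median log2 level of 16 gene lists in each library relative to the mean of the sham libraries, with exposed libraries as filled and sham libraries as open symbols. Ribosomal protein lists lie alike in the 3 exposed libraries, immediate early and glucocorticoid-responsive lists lie nearer to sham in exposed library 3, and exposed library 1 lies at 4.04 for heart muscle.

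Of single genes not described with the lists above, some of them members of other lists, Epb4.1l3 led among those higher. It encodes a cytoskeletal linker of the band 4.1 family (chromosome 17, 69156809 to 69289985) and had 21.5, 18.7 and 22.2 CPM in the exposed libraries against 5.28, 6.56 and 5.89 CPM in the sham libraries. The groups were tight and far apart, with a log2 difference of 1.81 ± 0.20. Ggt5, an enzyme that processes glutathione conjugates and leukotrienes, had 12.9, 12.98 and 12.8 CPM after exposure and 4.80, 4.31 and 6.08 CPM in sham (1.34 ± 0.23). Ppp2r2b, a regulatory subunit of protein phosphatase 2A, had 3.61, 2.77 and 4.46 CPM in exposed lungs against 0, 0.188 and 0 CPM in sham lungs, near the detection limit in sham. Hey2, a Notch-driven repressor of vessels and heart, had 5.87, 5.19 and 4.15 CPM in the exposed libraries against 1.28, 1.69 and 0.981 CPM in the sham libraries (1.93 ± 0.39). Alb, albumin, which lung does not normally make in quantity, had 27.7, 25.1 and 22.6 CPM after exposure and 7.05, 3.00 and 0.393 CPM in sham, and the liver gene Serpina3k had 2.86, 3.29 and 3.35 CPM in exposed lungs against 0.160, 0.375 and 0 CPM in sham lungs. Both were core genes. Of 24 listed liver genes 16 passed the expression threshold, and 14 of these were higher, against 54.2% of all genes. Without exposed library 1 it was 10 of 14. Cyp2e1, a liver gene of the list, was high in exposed library 1 alone, at 327 CPM. Apoh had 0.602, 0.173 and 0.797 CPM after exposure and 0 in each sham library. Apoh thus passed the expression threshold through the exposed libraries alone. Serpina3k, at an FPKM of 0.083, 0.195 and 0 in sham, and Serpina1b, at 0.405, 0.118 and 0, were below 0.5 in each sham library. The threshold thus favoured liver genes that were high after exposure, and the count of 14 is no support for a liver difference. Gm13248, a gene model whose locus overlaps others, had 6.32, 6.402 and 6.06 CPM after exposure and 1.601, 1.5001 and 1.57 CPM in sham (1.99 ± 0.31). Among those lower, Cxx1c, which also overlaps another gene, had 14.1, 12.5 and 11.2 CPM in exposed lungs against 25.1, 28.1 and 28.1 CPM in sham lungs (-1.11 ± 0.17). The abundant transcripts that were lower included Fth1, the ferritin heavy chain (-0.67 ± 0.21), the RNA helicase gene Ddx5 (-0.57 ± 0.24) and Actg1, cytoplasmic gamma actin (-0.54 ± 0.20). The abundant ones that were higher included Pfn1, the actin-binding profilin (0.46 ± 0.16), and Ly6e (0.47 ± 0.15), which interferon can induce.

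A few gene entries had no fragment in sham and at least 10 in each exposed library. The symbol Cdc73, a subunit of the PAF1 complex of elongating polymerase, has 2 entries at the same locus. The smaller entry had 39, 46 and 32 fragments after exposure and 0 in each sham library, but the larger one had 102, 133 and 106 CPM in the exposed libraries against 98.8, 93.9 and 92.8 CPM in the sham libraries, so the gene itself was well detected in sham. The RIKEN gene 9130221H12Rik had 23, 39 and 62 against 0 and Pagr1b had 33, 12 and 16 against 0. All 3 share their locus with another gene, so fragments may have been given to one or the other gene by the estimate, and their level is uncertain.

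**Figure D5:**
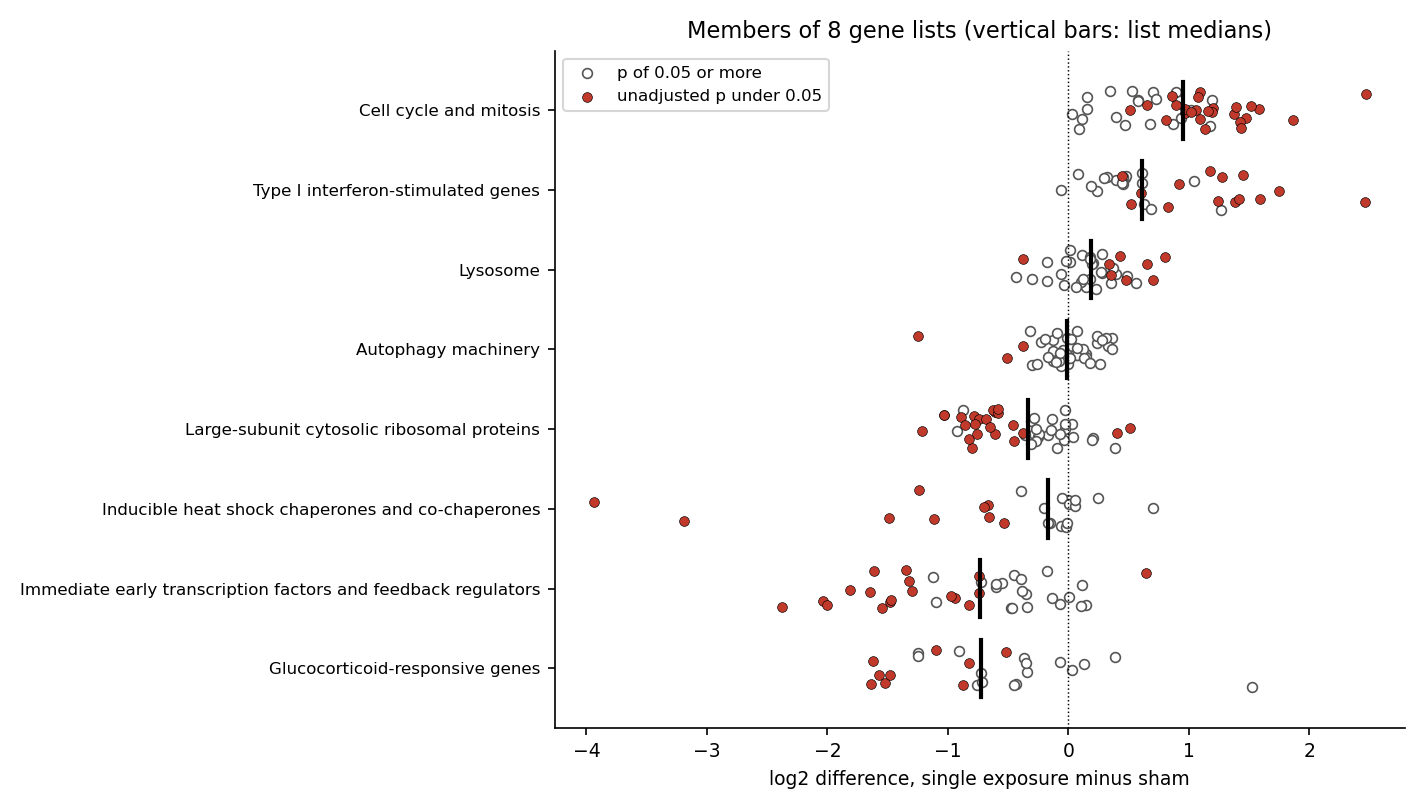
Fitted log2 difference, single exposure minus sham, for each fitted member of 8 gene lists, 1 point per gene, with filled points at an unadjusted p under 0.05 and a bar at the list median. The cell cycle list lies above 0 throughout, autophagy is centred at -0.01, and large-subunit ribosomal proteins centre at -0.33 with 7 members above 0.

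The FPKM and count columns of the deposited table did not always tell the same story. Over 11573 genes compared, the log2 difference from FPKM was higher than that from counts by a median of 0.10. In 355 genes (3.07%) this offset departed from its median by more than 0.5. On FPKM as deposited 2212 genes had all exposed libraries above sham and 919 had all below, against 1452 and 1519 on CPM. With limma on log2(FPKM + 1), 1233 of 1782 genes at an unadjusted p under 0.05 were higher, where edgeR had 863 of 1614. Map1lc3b shows the effect. Its FPKM was 98.4, 97.8 and 119.7 in the exposed libraries and 79.1, 80.1 and 81.8 in the sham libraries, without overlap, where its counts overlapped. All tests reported above used the counts, and how lengths entered the FPKM is not given in the sources used here.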

How the data were processed

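Lungs were profiled by RNA sequencing after ribosomal RNA depletion, in 3 libraries after a single brain exposure and 3 of sham mice. Per the submitters' processing notes, cutadapt 1.9.3 and HISAT2 2.0.4 were used with build mm10, whereas neither the estimator of expression nor the gene models are stated. The authors deposited an FPKM and an estimated count per gene and library, with no replicates pooled, per the file headers. The deposited estimated counts are not whole, but low values are multiples of 1 step per library (0.902 to 1.19). Divided by the step, 92.3 to 93.4% of values were whole within 0.1, and these fragment counts were rounded to whole numbers and tested. How the step and the FPKM scaling arose is not stated. Another irradiated group fills 6 columns of the table, which were not used.

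Genes with a mean FPKM of at least 0.5 were fitted in edgeR 4.0.16 (R 4.3.3) by its quasi-likelihood test on the group alone, with TMM factors of 0.965 to 1.02, a common biological coefficient of variation of 0.347 and 4 residual degrees of freedom. Values in CPM use TMM-scaled library sizes, log2 differences are exposed minus sham with their standard errors from the fit, and p-values were adjusted by the Benjamini-Hochberg method over all genes fitted. DESeq2 1.42.0 and limma 3.58.1, limma also on log2(FPKM + 1) and log2(FPKM + 0.1), were alternatives, as were other filters, left-out libraries and a replicate block. With 3 libraries against 3 an exact permutation test of 1 gene cannot go below 0.1, so none is given. Loci are mm10 as deposited, and promoter windows are RefSeq's of GRCm38.p6, matched by gene for 11101 of the 14497 genes. The loci of 4273 genes fitted overlap another gene, and 95 genes share a symbol.

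The members and gene lists were chosen with earlier results of these data known. Named genes are the 10 per direction with the smallest p among genes with non-overlapping groups, at least 2-fold difference and a mean FPKM of at least 1, the 5 most abundant per direction at an unadjusted p under 0.05 with non-overlapping groups, and a fixed set of markers. In each list the 3 members with the smallest p qualified, of which part are described, and other list members, locus-sharing genes and core genes were named after their values were seen. A few genes that these rules pick are not reported here.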

Additional observations from a re-analysis of the deposited data

How the results depend on the processing

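No gene was called by edgeR's quasi-likelihood test at an adjusted p under 0.05, nor with DESeq2 size factors, with limma on FPKM or voom, with the robust option, with the deposited counts rounded, under the 3 other filters on low values, without mitochondrial and muscle genes or without any 1 library. Leaving out both libraries that stand apart, exposed 1 and sham 1, a setting chosen after the data were seen, gave 1 call, the mitochondrially encoded mt-Atp6, lower. DESeq2 called 134 genes, and 18 to 448 when 1 library was left out: 448, 243 and 402 without exposed library 1, 2 and 3, 18, 58 and 47 without sham library 1, 2 and 3, and 46 without both libraries that stand apart. The count at an unadjusted p under 0.05 was 1614 and stayed between 1544 and 1782 under the alternatives that keep all 6 libraries unblocked, other than DESeq2 with 1492. It ranged from 521 to 2738 when 1 library was left out in edgeR and from 678 to 2186 in DESeq2 (678 without sham library 1 and 839 without sham library 3), and was 1079 without both libraries that stand apart in edgeR and 835 in DESeq2. The share higher was 53.5% in edgeR, 45.5% in voom and 69.2% with limma on log2(FPKM + 1), and 69.5% with a pseudocount of 0.1. The count of genes whose groups do not overlap was 2971, 2832 with a mean FPKM of at least 1 and 3131 on FPKM as deposited, and ranged from 3149 to 5464 when 1 library was left out, a setting in which fewer libraries must separate. Of 70 list medians 28 moved by more than the spread of the exposed libraries in at least 1 alternative.

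Of 171 genes named and fitted, 21 changed sign in some fit, and none of the 21 was called in it. On the log2 scale limma on log2(FPKM + 1) gave Bst2 0.15, Ccl2 -0.020, Egr1 0.066, Hsp90aa1 -0.49, Hsp90ab1 0.051, Il1b -0.26, Map1lc3b 0.38, Psmb8 0.20, Scgb1a1 0.15, Sqstm1 0.017 and Tgfb1 -0.039, and with a pseudocount of 0.1 it gave Bst2 0.15, Ccl2 -0.014, Egr1 0.070, Hsp90aa1 -0.49, Hsp90ab1 0.051, Il1b -0.36, Map1lc3b 0.38, Psmb8 0.21, Scgb1a1 0.15, Sqstm1 0.017 and Tgfb1 -0.043. With voom the values were Fos -0.012, Hsp90aa1 -0.036, Il1b -0.62, Sftpc -0.11, Slfn5 -0.0043 and Tgfb1 -0.022, and without both libraries that stand apart they were Ager 0.32, Hsp90aa1 -0.19, Myh6 -0.98 and Pecam1 0.20. When 1 library was left out the values ran for Ager from -0.90 to 0.34, Bst2 from -0.20 to 0.024, Ccl2 from -0.32 to 0.59, Cryab from -0.011 to 0.49, Egr1 from -0.34 to 0.25, Fkbp5 from -0.89 to 0.17, Fos from -0.45 to 0.42, Hsp90aa1 from -0.19 to 0.21, Hsp90ab1 from -0.17 to 0.051, Il1b from -1.40 to 0.94, Irf9 from -0.021 to 0.36, Myh6 from -0.97 to 3.66, Nr3c1 from -0.070 to 0.35, Pecam1 from -0.43 to 0.21, Psmb8 from -0.30 to 0.14, Scgb1a1 from -0.31 to 0.022, Sftpc from -0.11 to 0.64, Slfn5 from -0.11 to 0.37 and Tgfb1 from -0.31 to 0.34. The cause was not tested.

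Replicate numbers were also tried as a pairing. The correlations of same-numbered libraries' deviations were 0.17, -0.05 and 0.15, against -0.21 to 0.16 for other pairs. With 3 libraries per group these values do not decide whether same-numbered libraries were paired, and the labels name no pairing. With the replicate block edgeR called 1 gene, Hspa1b, lower, and 1191 genes were at an unadjusted p under 0.05, 559 of them higher. The signs that changed with the block were Fos -0.027, Hsp90aa1 -0.033, Il1b -0.49, Sftpc -0.090, Slfn5 -0.0012 and Tgfb1 -0.015. Depths of 4987829 to 6909816 fragments limit genes of low level most.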

Other observations

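Smaller pathways held single genes at an unadjusted p under 0.05 in both directions. Notch signalling passes between touching cells, and of 21 genes 3 were higher and 4 lower at an unadjusted p under 0.05 (background 11.1%). The ligand gene Jag1 had 105, 84.1 and 103 CPM in the exposed libraries against 124, 126 and 126 CPM in the sham libraries (-0.37 ± 0.13), and its relatives Jag2 (-0.76 ± 0.26) and Dll1 (-1.67 ± 0.62) lay on the same side. The target Hey2, given above, and the DNA-binding partner Rbpj (0.46 ± 0.15) lay on the other. Of 19 genes of NF-kB and its inhibitors 14 were lower, with a median of -0.30, and 4 were lower and 1 higher at that threshold. Rela, the main activating subunit, had 58.7, 67.1 and 80.0 CPM after exposure and 87.3, 87.0 and 98.1 CPM in sham (-0.40 ± 0.15), while Nfkb2, the precursor of the p52 subunit, had 56.6, 49.1 and 48.9 CPM in exposed lungs against 27.9, 44.6 and 27.7 CPM in sham lungs (0.63 ± 0.22). The survival and death genes went both ways, with Mcl1 and Bcl2l1, which restrain mitochondrial cell death, at -0.68 ± 0.23 and -0.89 ± 0.33, and the pore-forming Bak1 at 1.05 ± 0.33. Mcl1 had 259.6, 384 and 440.2 CPM in the exposed libraries against 576, 533 and 629 CPM in the sham libraries, with the groups apart.

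Splicing factors of the SR and hnRNP families leaned lower in 28 of 36, with a median of -0.11, and -0.01 without exposed library 1. Tra2a, which activates exon inclusion, had 56.7, 91.0 and 82.9 CPM after exposure and 116, 116 and 124 CPM in sham (-0.63 ± 0.19), and Hnrnpm had 57.3, 86.0 and 78.0 CPM in exposed lungs against 101, 96.2 and 105 CPM in sham lungs (-0.45 ± 0.17). Respiratory chain genes followed exposed library 1. Of 59 nuclear-encoded ones 45 were higher, with a median of 0.33, which was -0.24 without that library, and the 13 mitochondrially encoded ones had a median of 0.29, which was -0.86 without it. Exposed library 1 also held the heart muscle transcripts given above, and their part in these medians was not tested. Antioxidant genes of the NRF2 set had a median of -0.01 over 28 genes.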
